A study of Mus musculus with 67 samples.

Results

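Naive CD4+ T cells were stimulated for 18 h with anti-CD3 and with beads that carried either anti-Btla or control Ig. Anti-Btla (clone 6A6) is an agonist antibody to the inhibitory receptor Btla. By the paper it also blocks binding of Btla to its endogenous ligand Hvem. The methods do not make clear whether anti-CD3 was on the same beads. The effect of anti-Btla was averaged over cultures without and with interferon beta (IFNb). The comparison took every library labelled as naive T cells with anti-CD3, which made 12 of the 60 libraries of the series. Of these, 6 had anti-Btla and 6 had CtrlIg (control Ig), and 3 of each 6 also received IFNb. The cells came from the spleens and lymph nodes of C57BL/6 animals that had not been immunized, and were purified with a CD4+ T cell enrichment kit. All 12 libraries share the anti-CD3 stimulus, and 3 unstimulated libraries of the same cells gave the resting level. Each group held 3 libraries, numbered 1 to 3, and a pair here means the anti-Btla and the control Ig library with the same number and the same IFNb treatment. By the study's methods its animals were young adults of both sexes unless otherwise stated, and whether animals were pooled for a library is not stated.

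Btla is a receptor of the immunoglobulin superfamily on T and B cells that binds Hvem, the product of Tnfrsf14. Its cytoplasmic tail recruits the tyrosine phosphatases Shp-1 and Shp-2, encoded by Ptpn6 and Ptpn11, which dampen signals from the antigen receptor. Stimulation of a T cell through CD3 induces interleukin 2 (Il2) and other cytokines, effector proteins such as granzyme B, and ligands such as Cd40lg, while genes of the resting state such as Il7r are lowered.

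The control Ig libraries held 7297781 to 32344816 counts and the anti-Btla libraries 10853219 to 34019760 counts. Mitochondrial genes held 3.70 to 4.29% of the counts of the 12 libraries. Per unit of transcript length, Cd4 lay at 98.0 to 139 TPM, but Cd8a, which defines CD8 T cells, lay at 84.5 to 120 TPM in the same 12 libraries and Cd8b1 at 198 to 308 TPM. The label CD4+ was thus not matched by an absence of CD8 transcripts. The B cell gene Cd79a lay at 1.41 to 4.51 TPM. The names of the deposited tables carry a sequencing lane tag, and 4 of the 6 pairs came from the same lanes. In the other pairs, control Ig library 1 without IFNb came from lane 2 and its partner from lane 3, and anti-Btla library 2 with IFNb came from lanes 4 and 5 and its partner from lane 3.

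Few genes passed the test in the naive T cells, and most of them were lower with anti-Btla. Of 15150 genes tested, 24 (0.158%) passed an adjusted p of 0.05, and these comprised 21 genes that fell (0.139%) and 3 that rose (0.0198%). The genes that fell included the cytokines Il2 and Ifng, the effector gene Gzmb, the T cell ligands Cd40lg and Tnfsf8, the cytokine receptor genes Il7r and Il4ra, and the interferon-inducible genes Oasl2, Gbp11 and Cd274. The genes that rose were Myb, Cd4 and Neurl3. Changes were modest, from 1.12-fold for Cd4 to 1.67-fold for Gzmb, apart from Gm14416, which was near the limit of detection. In 23 of the 24 genes all 6 pairs moved the same way, but the ranges of the 6 anti-Btla and 6 control Ig libraries were separate for only 3 of them, Cd40lg, Il2 and Myb. The test that chose these genes compared libraries within a number, so agreement of pairs was favored, and counts of pairs below only describe them. The 6 pairs are numbers 1 to 3 in each IFNb arm. The share of all genes with 6 of 6 pairs in 1 direction was not counted. Over all genes tested, 22 (0.145%) had every anti-Btla library below every control Ig library and 24 (0.158%) had every one above.

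The calls rested on the pairing. The test compared libraries within a replicate number. The study has such a term in its linear models of other data, and for sequencing it names DESeq2 without stating one. Of the 6 pairs compared, 4 had deviations from the group means that correlated above 0.1 (lowest 0.0434). Without that term (no replicate block) edgeR called 0 of 15150 genes (808 at an unadjusted p under 0.05), and with lane in its place it called 2, Rragd and Ccr9. From the 4 pairs of the same lane alone it called 0, with 788 genes at an unadjusted p under 0.05. The direction of all 24 genes was kept without the replicate block, and so was that of the 23 genes tested in the 4 pairs from the same lane. Neither result was free to differ much. The group means hardly depend on the block, and the 4 pairs are among the 6 on which the genes were chosen. Kept directions are thus no independent evidence. Leaving out replicate 2 in every arm ended all 24 calls, and leaving out replicate 3 left 3 of them, Gzmb, Cish and Gprin3. In the other direction, DESeq2 called 92 genes. Of the 24, 18 were among them, while Il2, Ifng, Rragd, Gbp11, Fam71b and Gm14416 were not. Adjusted p-values below are from edgeR's quasi-likelihood test and measure only the spread between these libraries, since the labels do not tie a number to an animal.

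Among secreted and surface ligands, Cd40lg (chrX:57212143-57224042), through which helper T cells activate B cells, had the smallest p (coordinates are those of build GRCm38). It was at 26.2 to 34.9 CPM (median 31.5) in the control Ig libraries and at 18.1 to 25.3 CPM (median 22.8) in the anti-Btla libraries. Every anti-Btla library lay below every control Ig library. The log2 change was -0.52 ± 0.06 (SE; adjusted p = 0.0028), a 1.44-fold fall. The growth factor gene Il2 (chr3:37120523-37125959) was at 21.7 to 29.96 CPM (median 23.7) with control Ig and at 14.3 to 17.2 CPM (median 15.97) with anti-Btla. Its groups were also separate, with a log2 change of -0.65 ± 0.11 (adjusted p = 0.0198). Unstimulated cells held 0.572 ± 0.586 CPM of Il2 (SD, n = 3), so the cells on anti-Btla beads still expressed it far above the resting level.

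Ifng (chr10:118441046-118445892), the cytokine that activates macrophages, was at 26.5 to 63.3 CPM (median 33.6) with control Ig and at 14.4 to 41.3 CPM (median 25.5) with anti-Btla. The groups overlapped, replicate 3 being the highest in all 4 arms, yet each anti-Btla library was below its own partner (log2 change -0.63 ± 0.11, adjusted p = 0.0198). Ifng shares exon sequence with Gm49751 on the same strand, so reads can be split between them. Tnfsf8, which encodes the ligand of CD30, was at 261 to 351 CPM (median 286) and 227 to 306 CPM (median 244) (log2 change -0.21 ± 0.04, adjusted p = 0.0207). Of 32 tested genes of a list of helper T cytokines and chemokines, 3 were called lower (Ifng, Il2 and Tnfsf8) and 0 higher. Over all genes these shares were 0.139% and 0.0198%. All 3 are also genes that the study displays as lowered in these samples. With the 12 stimulated libraries alone 5 members were called, with the replicate block within each IFNb arm 4, and with no filter 10 of 36. Over all genes those settings called 87, 80 and 319. DESeq2 called 2 members, and 0 were called with no replicate block, with lane as the block, or without replicate 2 or 3. By an unadjusted p under 0.05, 13 lay lower and 1, Il21, higher, against 4.51% of all genes lower and 3.3% higher by that rule. The median log2 change of the list was -0.18, with 29 of 32 members negative, beside 0.00 over all genes. Lta, which encodes lymphotoxin alpha and binds Hvem, had a log2 change of -0.23 ± 0.06 that did not pass (adjusted p = 0.168).

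**Figure D1:**
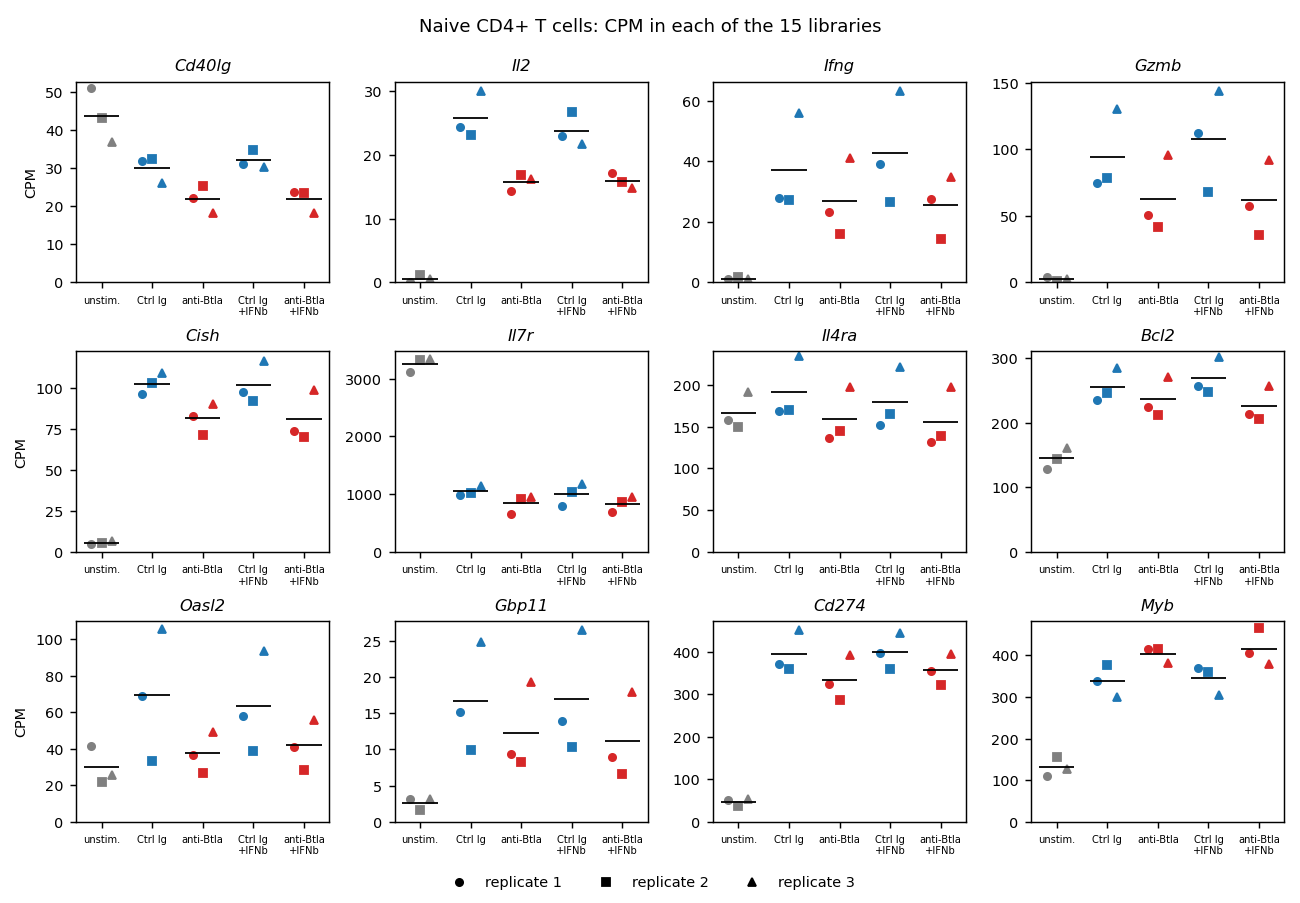
CPM of 12 genes (vertical axes, from 0) in each of the 15 naive T cell libraries by arm; symbol shapes give the replicate number and black lines the group mean of 3. Each anti-Btla symbol lies below the control Ig symbol of the same shape for 11 genes and above it for Myb, and in 9 of the 12 panels replicate 3 is the highest of each stimulated arm.

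The effector gene with the largest fall was Gzmb (chr14:56258838-56262260), whose protease kills target cells. It was at 68.2 to 144 CPM (median 95.5) with control Ig and at 35.6 to 95.8 CPM (median 54.3) with anti-Btla. The ranges overlapped, with replicate 3 the highest in each arm, and all 6 pairs fell (log2 change -0.74 ± 0.09, adjusted p = 0.00338). The other 19 tested members of a list of 20 cytotoxic effector genes were not called, while 0.139% of all genes were called lower. The list's median log2 change was -0.03. Nkg7, a cytotoxic granule gene, had a log2 change of -0.14 ± 0.05 (adjusted p = 0.354), and Eomes, a transcription factor of cytotoxic lymphocytes, lay higher in 6 of 6 pairs at 0.20 ± 0.07 (adjusted p = 0.465). CD8 transcripts were present, and Cd8b1 had a log2 change of -0.14 ± 0.05 (adjusted p = 0.352) and Cd8a one of -0.07 ± 0.04 (adjusted p = 0.689). The part of CD8 T cells in the Gzmb and Ifng values was not tested, and in bulk RNA fewer cells of a type cannot be told apart from less RNA per cell.

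Several genes of cytokine signaling were also called. Cish (chr9:107296026-107302784), a feedback inhibitor induced by Stat5, was at 92.4 to 117 CPM (median 100.3) with control Ig and at 70.6 to 99.3 CPM (median 78.5) with anti-Btla. All 6 pairs fell although the ranges overlapped (log2 change -0.34 ± 0.05, adjusted p = 0.007). Il7r (chr15:9505788-9530176), the receptor chain for the survival cytokine interleukin 7, was at 793 to 1176 CPM (median 1031) with control Ig and at 662 to 961 CPM (median 891) with anti-Btla. Its log2 change was -0.29 ± 0.05 (adjusted p = 0.0206), again with 6 of 6 pairs lower and overlapping ranges. Il4ra, a receptor chain for interleukin 4, was at 152 to 235 CPM (median 169) and 131 to 197 CPM (median 142) (log2 change -0.23 ± 0.04, adjusted p = 0.00976). Bcl2, which is not on the list of cytokine receptors below and protects lymphocytes from apoptosis, was at 235 to 302 CPM (median 252) and 206 to 271 CPM (median 219.7) (log2 change -0.18 ± 0.03, adjusted p = 0.0198). Both fell in 6 of 6 pairs with overlapping ranges. Of 42 genes of cytokine receptors, Stat and Socs proteins, Cish, Il4ra and Il7r were the called members, against 0.139% of all genes called lower. With no filter on low counts 7 members were called (319 genes in all), and with no replicate block 0. The list's median log2 change was -0.05 with 35 of 42 negative.

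The control Ig libraries that define these falls also define the response to anti-CD3 itself, so the values are set side by side. Against unstimulated cells, 7588 of 15150 genes (50.1%) passed with control Ig beads. Il2, Ifng, Gzmb and Cish were higher upon anti-CD3 by 5.39 ± 0.27, 5.06 ± 0.25, 5.44 ± 0.23 and 4.16 ± 0.10 on the log2 scale. Il7r, Gprin3, Ccr9 and Kcna2, which anti-Btla also lowered, had log2 changes upon anti-CD3 of -1.64 ± 0.07, -1.30 ± 0.08, -1.41 ± 0.08 and -1.49 ± 0.08. The genes lowered by anti-Btla thus held both genes that were higher and genes that were lower after anti-CD3. Cd40lg was at 43.7 ± 7.03 CPM in unstimulated cells (SD, n = 3), with a log2 change upon anti-CD3 of -0.53 ± 0.09.

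Further called genes stand outside the cytokine and receptor lists. The chemokine receptor gene Ccr9, which guides lymphocytes to the small intestine, was at 60.9 to 91.6 CPM (median 67.7) with control Ig and at 45.5 to 68.1 CPM (median 55.1) with anti-Btla (log2 change -0.37 ± 0.05, adjusted p = 0.00767). Rragd, a Rag GTPase that relays amino acid supply to mTORC1, was at 10.4 to 15.2 CPM (median 12.0) and 6.20 to 10.6 CPM (median 8.38) (log2 change -0.55 ± 0.08, adjusted p = 0.007). In both genes the highest anti-Btla library exceeded the lowest control Ig library, and all 6 pairs fell. Log2 changes were -0.41 ± 0.06 for Gprin3, -0.49 ± 0.08 for Rflnb, -0.48 ± 0.08 for Fam71b, -0.27 ± 0.05 for Arl4c, a small GTPase gene, and -0.36 ± 0.06 for Kcna2, a voltage-gated potassium channel gene. Gm14416, an unprocessed pseudogene, had 68 counts in all in the control Ig libraries (0 to 20 per library) and 0 in the anti-Btla libraries. Against a floor of 3 counts over the group it was at least 30.3-fold lower, and reads of such copies can be assigned to another copy.

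Myb (chr10:21124935-21160984), a transcription factor of lymphoid progenitors, rose. It was at 299.6 to 376 CPM (median 348) with control Ig and at 379 to 465 CPM (median 410.0) with anti-Btla. The groups were separate, with a log2 change of 0.27 ± 0.05 (adjusted p = 0.022). Cd4, the coreceptor, was at 308 to 372 CPM (median 327) and 339 to 432 CPM (median 365), higher in 6 of 6 pairs by 0.16 ± 0.03 on the log2 scale (adjusted p = 0.0343). Neurl3, a ubiquitin ligase gene, had a log2 change of 0.17 ± 0.03 (adjusted p = 0.047). Both calls were lost with RLE size factors. Lag3, an inhibitory receptor gene, lay just above the threshold at 20.2 to 28.96 CPM (median 23.03) with control Ig and 27.6 to 40.2 CPM (median 33.1) with anti-Btla (log2 change 0.46 ± 0.09, adjusted p = 0.0534). Cd28, Ctla4 and Cast were higher in 6 of 6 pairs and did not pass (log2 changes 0.15 ± 0.04, 0.12 ± 0.04 and 0.12 ± 0.03, with adjusted p = 0.129, 0.284 and 0.129), although the ranges of Cast were separate.

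A pair of lists held T cell genes that the study itself displays. Of the 9 genes of the list of lowered genes, 8 were called lower, and Cd69, an early activation antigen, was not (log2 change -0.13 ± 0.04, adjusted p = 0.352). Of the 2 genes of the list of raised genes, Myb was called and Lag3 was not. Those lists were chosen at least in part on these samples and are no independent evidence of direction. The study used a looser threshold of adjusted p and describes no IFNb for its mouse T cells. The calls here come from the average over both IFNb arms, and without IFNb edgeR called 0 of 15150 genes. Called members of the study's lists also sit in other lists described here. Ifng, Il2 and Tnfsf8 are among the helper T cytokines, and Cish and Il7r among the cytokine receptor genes. Cd274 is among the interferon-gamma response genes, Cd40lg among the activation markers and Myb among the lineage factors. Calls of these genes in those lists are thus not separate findings.

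Interferon-stimulated genes lay lower with anti-Btla as a list, and their level also differed between replicates. Oasl2 (chr5:114896936-114912234), an antiviral oligoadenylate synthetase-like gene, was at 33.2 to 106 CPM (median 63.4) with control Ig and at 26.6 to 55.5 CPM (median 38.8) with anti-Btla. The ranges overlapped widely and all 6 pairs fell (log2 change -0.71 ± 0.13, adjusted p = 0.0278). It was the single member called of 49 tested type I interferon-stimulated genes, against 0.139% of all genes called lower. At an unadjusted p under 0.05, 27 members lay lower and 0 higher, against 4.51% and 3.3% of all genes. The list's median log2 change was -0.19, with 47 of 49 members negative, beside 0.00 over all genes. DESeq2 called 4 members. By edgeR 11 were called with the 12 stimulated libraries alone and 10 with the replicate block within each IFNb arm. With no filter on low counts 24 of 50 were called, and with no replicate block 0. Over all genes those settings called more as well, 92 of 15150, 87 of 14974, 80 of 14974 and 319 of 26232, and 0 with no replicate block. Other members included the interferon-induced genes Ifit1bl1 at -0.35 ± 0.08 (adjusted p = 0.0727) and Oas2 at -0.49 ± 0.12 (adjusted p = 0.153). Among 40 genes of the interferon-inducible GTPases and the interferon-gamma response, Gbp11 and Cd274 were called, against 0.139% of all genes called lower. All 40 had negative log2 changes, and the median was -0.11. The count of called members was 9 with the 12 libraries alone, 10 with the block within each arm, 14 with no filter and 0 with no replicate block. Gbp11, a guanylate-binding protein gene annotated as a polymorphic pseudogene, was at 9.90 to 26.5 CPM (median 14.5) with control Ig and 6.64 to 19.3 CPM (median 9.13) with anti-Btla (log2 change -0.52 ± 0.09, adjusted p = 0.0198). Cd274 (chr19:29367455-29388095), which encodes the checkpoint ligand PD-L1, was at 358 to 451 CPM (median 384) and 286 to 394 CPM (median 339) (log2 change -0.20 ± 0.03, adjusted p = 0.0198). The ranges overlapped for both genes, and 6 of 6 pairs were lower for each.

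By library, the median log2 CPM of the 49 type I interferon-stimulated genes was 5.71, 5.33 and 6.29 in control Ig replicates 1 to 3 and 5.52, 5.38 and 5.65 in their anti-Btla partners. With IFNb it was 5.80, 5.40 and 6.08 with control Ig and 5.44, 5.51 and 5.86 with anti-Btla. The median difference of the members within a pair was -0.22, -0.06 and -0.42 without IFNb and -0.15, -0.03 and -0.16 with it, so replicate 2 gave the smallest difference in both arms. Leaving out control Ig replicate 3 without IFNb brought the list's median to -0.13.

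**Figure D2:**
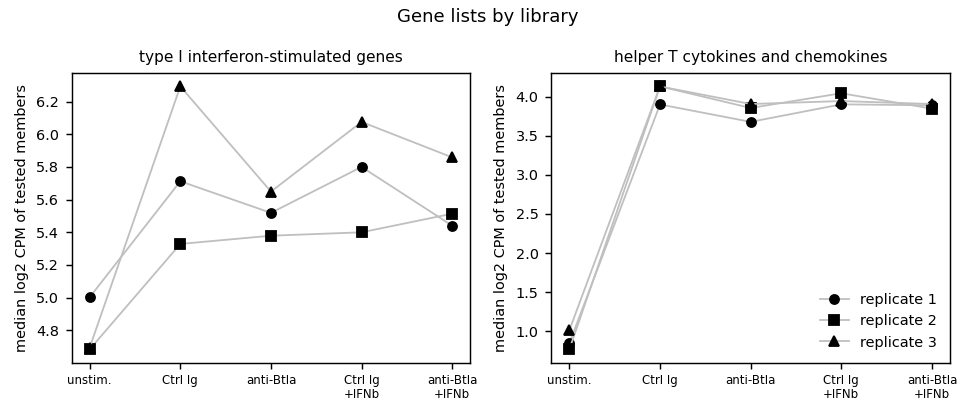
Median log2 CPM of the tested members of each list (49 and 32 genes) in every naive T cell library; lines join libraries with the same replicate number. For the interferon-stimulated genes replicate 3 stands at 6.29 and 6.08 with control Ig and at 5.65 and 5.86 with anti-Btla, while replicate 2 is nearly level at 5.33 to 5.51 in the 4 stimulated arms.

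The promoters of 3 called genes are shown because they hold letters of motifs bound by the factors of cytokine and interferon signaling. Windows of 300 bases (250 before to 50 after the RefSeq start) were taken from build GRCm38.p6, the first window listed for each gene. Of the 24 called genes 19 matched. The RefSeq start can differ from the first base of the gene spans given above, and the windows of Cish and Il7r lie inside those spans. Capitals mark the GAS letters TTCNNNGAA, bound by Stat proteins, in Cish (+ strand, chr9:107296409-107296708) and in Il7r (- strand, chr15:9529827-9530126), and the ISRE core letters GAAANNGAA on the reverse strand in Cd274 (+ strand, chr19:29367188-29367487).
Cish: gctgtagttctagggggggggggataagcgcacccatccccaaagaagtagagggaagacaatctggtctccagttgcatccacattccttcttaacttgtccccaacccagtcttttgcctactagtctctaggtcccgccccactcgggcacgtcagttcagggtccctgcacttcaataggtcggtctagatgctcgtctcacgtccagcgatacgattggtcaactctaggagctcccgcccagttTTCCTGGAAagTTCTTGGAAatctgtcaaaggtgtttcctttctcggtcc
Il7r: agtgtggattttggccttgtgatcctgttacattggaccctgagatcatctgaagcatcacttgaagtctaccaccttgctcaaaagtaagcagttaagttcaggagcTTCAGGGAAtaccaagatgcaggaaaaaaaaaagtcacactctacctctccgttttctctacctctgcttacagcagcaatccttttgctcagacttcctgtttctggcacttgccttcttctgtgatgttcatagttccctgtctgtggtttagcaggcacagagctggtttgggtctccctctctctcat
Cd274: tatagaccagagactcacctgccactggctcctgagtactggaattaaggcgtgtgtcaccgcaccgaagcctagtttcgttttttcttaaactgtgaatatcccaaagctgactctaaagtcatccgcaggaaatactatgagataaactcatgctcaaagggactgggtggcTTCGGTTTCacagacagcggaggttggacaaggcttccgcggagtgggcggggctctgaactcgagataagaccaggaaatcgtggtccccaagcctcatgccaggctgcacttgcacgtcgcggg
Both strands were searched, and the GAS letters read the same on both. Among all 27025 promoter windows 8.47% held the GAS letters and 8.57% the ISRE core, against 4 and 2 of the 19 matched called genes. The letters TGANTCA, bound by AP-1 factors, were searched as well. They were held by 7.93% of all windows and by 1 of the 19 called genes. The window of Oasl2 held none of the searched motifs. Of 36 matched type I interferon-stimulated genes, 20 (55.6%) held the ISRE core. These are matches of letters and not measured binding.

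The transcripts of the receptor and its partners did not pass the test. Btla (chr16:45224315-45257670) was at 112 to 135 CPM (median 123.4) with control Ig and at 116 to 135 CPM (median 125) with anti-Btla, with a log2 change of 0.01 ± 0.04 (adjusted p = 0.983). Tnfrsf14, which encodes Hvem, was at 21.6 to 26.7 CPM (median 24.1) and 19.5 to 24.7 CPM (median 22.98) (log2 change -0.08 ± 0.07, adjusted p = 0.862). The phosphatase genes Ptpn6 and Ptpn11 had log2 changes of 0.07 ± 0.04 and 0.06 ± 0.04 (adjusted p = 0.77 and 0.802), and Tnfsf14, which encodes the Hvem ligand LIGHT, one of -0.15 ± 0.08 (adjusted p = 0.665). Of 12 tested genes of this list 0 were called by edgeR or by DESeq2, and 1 lay lower at an unadjusted p under 0.05. Per unit of transcript length, Btla was at 33.2 to 41.2 TPM and Tnfrsf14 at 28.1 to 56.1 TPM over the 12 libraries.

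Growth, metabolism and cell cycle lists had medians near 0. The median log2 change was -0.01 over 49 genes of ribosome biogenesis and Myc targets, -0.02 over 44 nuclear genes of oxidative phosphorylation, 0.00 over 22 genes of glycolysis, 0.02 over 39 genes of amino acid and one-carbon metabolism, 0.01 over 40 genes of DNA replication, 0.04 over 30 mitotic genes and 0.01 over 26 genes of the unfolded protein response. In each of them edgeR called 0 members, with 0 to 4 lower and 0 to 2 higher by the unadjusted rule above. Over all genes that rule gave 4.51% lower and 3.3% higher. By DESeq2 1 was called, in glycolysis. Hif1a, a hypoxia-inducible factor gene, was at 404 to 437 CPM (median 422) and 417 to 455 CPM (median 428) (log2 change 0.04 ± 0.03, adjusted p = 0.834). Early response genes of the antigen receptor had a median of -0.04 over 36 genes, with 0 called by edgeR or DESeq2 and 4 lower and 1 higher at an unadjusted p under 0.05. Within that list, Nr4a3, an orphan nuclear receptor gene, and Rel, an NF-kappaB subunit gene, had log2 changes of -0.10 ± 0.03 and -0.10 ± 0.03 (adjusted p = 0.352 and 0.432), and Nfatc1, a factor of calcium signaling, one of 0.10 ± 0.03 (adjusted p = 0.352). Over 45 genes of T cell receptor signaling the median was -0.01, with 1 member called lower and Cd4 called higher, while DESeq2 called 9 members. Among 37 resting lymphocyte genes and Foxo targets, Bcl2 and Il7r were called lower, the median was -0.03, and DESeq2 called 6 members. The 28 T cell activation markers (median -0.01) held Cd40lg as their called member, and the 36 T lineage and regulatory factors (median -0.01) held Myb. Over all 15150 genes edgeR called 0.139% lower and 0.0198% higher, and DESeq2 called 92.

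**Figure D3:**
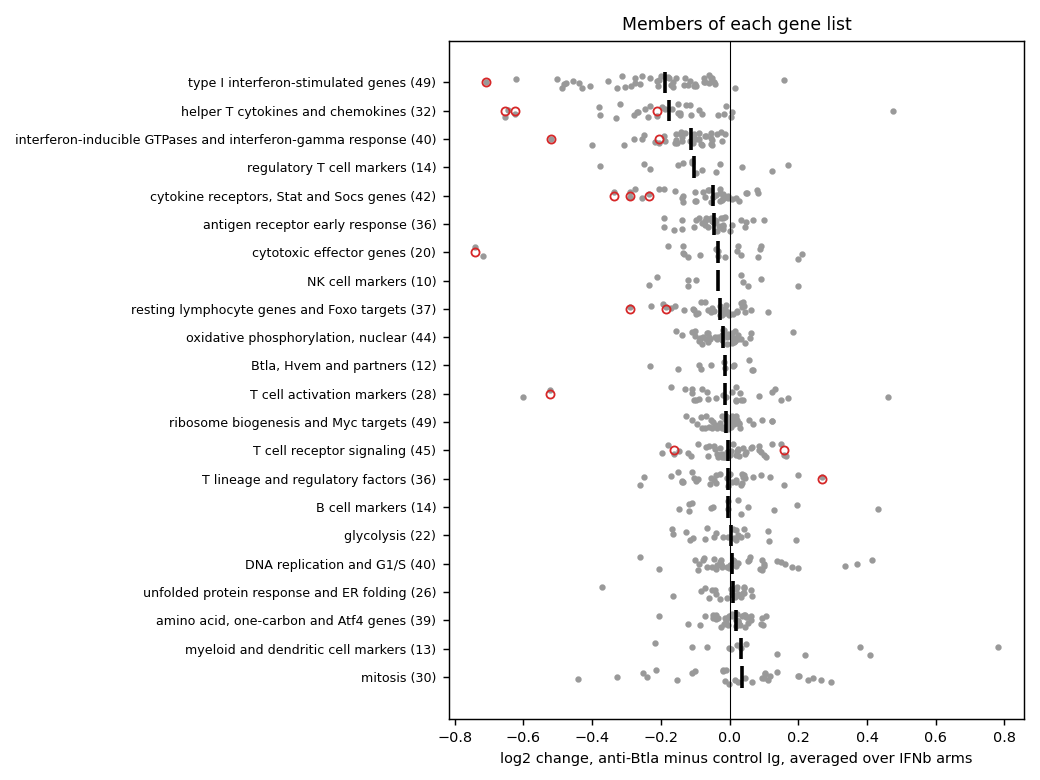
Log2 change of each tested member (grey points) of 22 gene lists (vertical axis, number of tested members in parentheses) for anti-Btla minus control Ig averaged over IFNb arms; black bars are list medians and red rings the called genes. The type I interferon-stimulated genes and the helper T cytokines have medians of -0.19 and -0.18, and the metabolic and cell cycle lists lie near 0.

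Markers of other cells were read beside these changes. Regulatory T cell markers had a median log2 change of -0.10 over 14 genes, 11 of them negative, with 0 called by edgeR or DESeq2. At an unadjusted p under 0.05, 5 lay lower and 2 higher, against 4.51% and 3.3% of all genes. Members included Gpr83 at -0.25 ± 0.07 and Lrrc32 at -0.23 ± 0.07 (adjusted p = 0.235 and 0.26). The summed level of these markers was 1256 to 1401 CPM with control Ig and 1210 to 1327 CPM with anti-Btla. B cell markers summed to 381 to 544 and 340.0 to 539 CPM, myeloid and dendritic cell markers to 74.6 to 115 and 75.7 to 109 CPM, NK cell markers to 141 to 161 and 142 to 177 CPM, and erythroid and platelet markers to 6.31 to 10.7 and 6.73 to 11.4 CPM. Their medians were -0.00 over 14, 0.03 over 13, -0.03 over 10 and 0.07 over 4 tested genes, with 0 called by edgeR or DESeq2 and 0 to 2 members past an unadjusted p of 0.05 in each. The myeloid marker C1qa was at 0 in all 12 libraries. The summed level of the CD8 markers was 525 to 783 CPM with control Ig and 493 to 722 CPM with anti-Btla, and the part of these cells in the called genes was not tested.

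The 24 called genes had the same direction in both IFNb arms, and both arms had entered the average that chose them. Without IFNb edgeR called 0 of 15150 genes (by DESeq2 36, and 1249 at an unadjusted p under 0.05), and with IFNb it called 2 (0.0132%), Gzmb and Cd40lg. Cd40lg had a log2 change of -0.48 ± 0.09 without and -0.57 ± 0.09 with IFNb, Gzmb -0.64 ± 0.14 and -0.84 ± 0.13, and Cish -0.34 ± 0.07 and -0.34 ± 0.07. For Oasl2 the values were -0.85 ± 0.19 and -0.57 ± 0.18, and for Myb 0.27 ± 0.07 and 0.27 ± 0.07. The median of the type I interferon-stimulated genes was -0.25 without and -0.12 with IFNb. The test of the difference between the arms called 0 of 15150 genes in edgeR (by DESeq2 11; the smallest adjusted p was 0.154 and 960 genes had an unadjusted p under 0.05). Of the 10 genes named by their p in that test, Spry1, a feedback inhibitor of receptor kinases, had log2 changes of -0.21 ± 0.06 without and 0.14 ± 0.06 with IFNb (adjusted p of the difference = 0.52), and Fam196b 0.38 ± 0.07 and -0.17 ± 0.07 (adjusted p = 0.19). IFNb averaged over both beads called 0 genes in edgeR (632 at an unadjusted p under 0.05), and the median log2 change of the 49 type I interferon-stimulated genes with IFNb was 0.01.

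**Figure D4:**
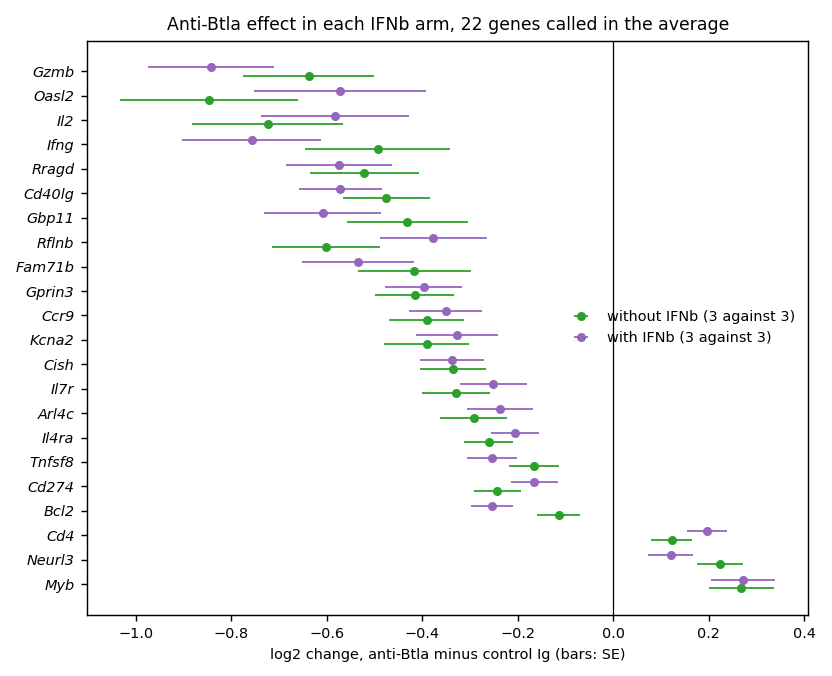
Log2 change with its SE (horizontal axis) for anti-Btla minus control Ig without IFNb (green) and with IFNb (purple), each 3 against 3 libraries, for 22 of the called genes. All points of a gene lie on the same side of 0, with Gzmb at -0.84 and Myb at 0.27 with IFNb.

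The same averaged comparison was set beside T cells of mice with experimental autoimmune encephalomyelitis (EAE), induced by immunization, and beside naive B cells stimulated through their antigen receptor. In EAE T cells 93 of 14572 genes (0.638%) passed and in naive B cells 7309 of 16635 (43.9%). The test of the difference between effects called 147 of 15982 genes (0.92%) for EAE T minus naive T cells and 5095 of 17962 (28.4%) for naive B minus naive T cells. The first count fell to 0 without the replicate block and to between 8 and 14 when one naive T replicate number was left out. Cell type and stimulus differ together in the second, and cannot be told apart. The mitochondrial share of counts was higher with anti-Btla in 6 of 6 EAE T pairs, at 1.27 to 7.40% with control Ig and 2.96 to 10.2% with anti-Btla, and in 5 of 6 naive B pairs, at 3.79 to 4.57% and 4.503 to 5.03%. In naive T cells it was higher in 3 of 6 pairs. In EAE T cells the median log2 change with anti-Btla was 0.25 over 13 B cell markers, 0.31 over 2 CD8 markers and 0.20 over 11 NK cell markers. It was 0.07 over 15 myeloid and dendritic cell markers, -0.08 over 14 regulatory T cell markers and -0.05 over 4 erythroid and platelet markers. The part of these shares and markers in the differences was not tested.

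Of the 24 genes called in naive T cells, 5 were called in that test against EAE T cells, beside 0.92% of all genes. They were Il7r (0.54 ± 0.12, adjusted p = 0.0354), Cd274 (0.33 ± 0.07, adjusted p = 0.0249), Gbp11 (0.60 ± 0.13, adjusted p = 0.033), Rragd (0.57 ± 0.14, adjusted p = 0.0408) and Rflnb (0.65 ± 0.13, adjusted p = 0.0195). Each value is a log2 difference of EAE T minus naive T cells. All 5 had been lowered in naive T cells and had log2 changes of 0.03 to 0.25 in EAE T cells, where none of the 5 passed. Since the 24 genes were chosen on the naive T values that also enter the difference, differences toward 0 are favored, and these values are a description. For Cd40lg, Il2 and Gzmb the differences of 0.30 ± 0.12, 0.11 ± 0.23 and 0.47 ± 0.15 did not pass (adjusted p = 0.272, 0.911 and 0.132). In the other direction, the early response genes Egr2 and Nr4a3 had log2 changes of -0.62 ± 0.08 and -0.58 ± 0.06 with anti-Btla in EAE T cells against -0.02 ± 0.04 and -0.10 ± 0.03 in naive T cells, and both differences passed (adjusted p = 0.000734 and 0.00119).

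Against naive B cells the difference passed for 16 of the 24 genes, beside 28.4% of all genes tested. The 24 were chosen on naive T values that also enter this difference, so the count is a description. Cish had a log2 change of -1.82 ± 0.14 in B cells (adjusted p = 7.07e-08), and Il4ra and Cd274 had changes of 0.31 ± 0.05 and 0.35 ± 0.06 there, opposite in sign to those in naive T cells (differences 0.60 ± 0.06 and 0.60 ± 0.07, adjusted p = 4.54e-08 and 2.26e-07). Ccnd2, the cyclin D2 gene, and Ldha, the lactate dehydrogenase gene of glycolysis, had log2 changes of -1.25 ± 0.04 and -1.001 ± 0.04 in naive B cells and of -0.05 ± 0.04 and 0.02 ± 0.03 in naive T cells.

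**Figure D5:**
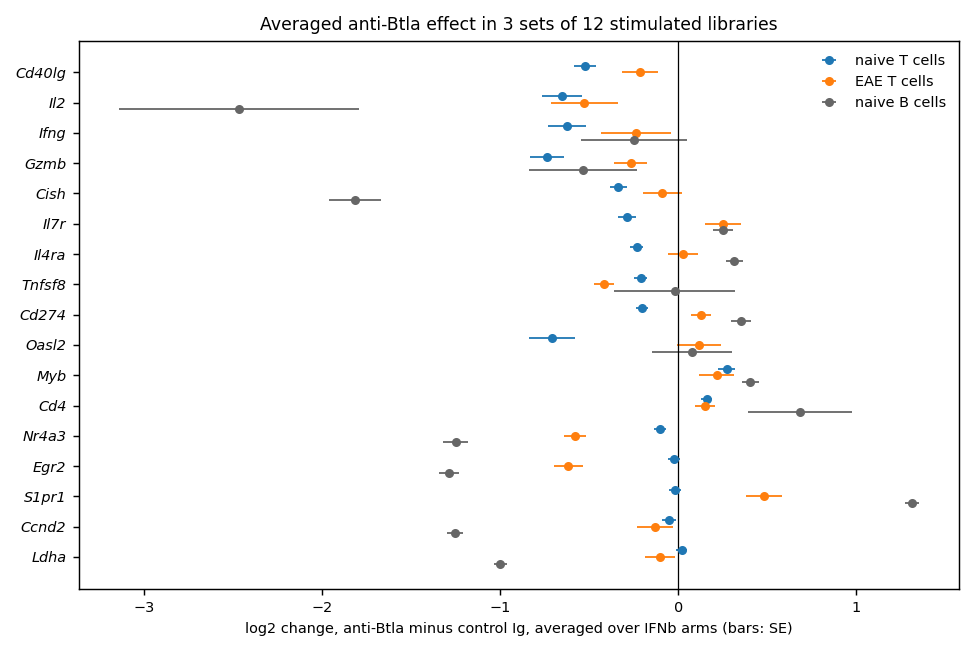
Averaged log2 change with its SE (horizontal axis) for anti-Btla minus control Ig in naive T cells (blue), EAE T cells (orange) and naive B cells (grey), 6 against 6 libraries each, for 17 genes named in the text. Egr2 and Nr4a3 are at -0.02 and -0.10 in naive T cells and at -0.62 and -0.58 in EAE T cells, and both differences passed. Oasl2 is at -0.71 in naive T cells and at 0.12 in EAE T cells. Its difference did not pass, and Oasl2 was chosen on its naive T value.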

How the data were processed

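RNA was sequenced from naive T cells in 5 groups of 3 libraries, and the members of the comparison and the gene lists were chosen with earlier results of these data known. The authors quantified transcripts with Salmon against GRCm38, and deposited an estimated count and a TPM value for each transcript and run. The library kit, the strand setting and the versions of the tools were not found in the labels or methods. Here, estimated counts were summed per gene (GENCODE vM21, 35519 genes; 922 transcripts had no gene and were left out) and over the runs of 1 library, and rounded. Deposited TPM values were summed per gene and served only to compare levels between genes.

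Counts were tested in edgeR 4.0.16 (R 4.3.3) with TMM scaling, filterByExpr at a minimum count of 10, and the quasi-likelihood F-test. The 15 naive T cell libraries shared the estimate of spread, the replicate number was a block, and genes with a Benjamini-Hochberg adjusted p under 0.05 were called. SE was taken from the F statistic. Pairing by number is not stated in the labels. The study displays mice numbered 1 to 3 for each bead type. Deviations from the group means correlated at a median of 0.121 between libraries of 1 number and of -0.0537 between other libraries. Of the pairs of 1 number 20 of 30 were above 0.1, and 4 of the 6 pairs compared. Centering each group of 3 on its own mean pulls the other correlations below 0 whenever those of 1 number are above it. The value of -0.0537 is thus no separate evidence of pairing. All naive T cell libraries numbered 3 came from lanes 4 and 5, so number and lane cannot be fully told apart.

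Named genes had a mean of at least 10 CPM over the 12 libraries and were the 12 with the smallest p in each direction, up to 3 of each of 26 lists, the pathway genes and the study's T cell genes, and 5 per direction for each difference. The rule gave 112 genes, not all of which are described, and the results of a few genes are not reported here. Il21, Gm14416 and C1qa were named after their values were seen. DESeq2 1.42.0, other scalings, filters, blocks and left-out libraries were tried as alternatives.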

Additional observations from a re-analysis of the deposited data

Results flagged for a closer look

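The averaged anti-Btla effect was tested for a difference between naive T cells and each of the other sets of stimulated cells. In EAE T cells the effect differed from that in naive T cells for 147 genes. Among the genes named by the smallest p, the log2 difference (EAE T minus naive T) was -0.60 for Egr2, -0.52 for Alcam, -0.48 for Nr4a3, -0.47 for Adk and -0.36 for Mars, all lower in EAE T cells. It was 0.54 for Ighm, 0.53 for Gm1966, 0.46 for Gramd3 and 0.37 for Stat4 in the other direction. Ighm encodes an immunoglobulin heavy chain and is a marker of B cells rather than T cells, and its log2 change was -0.12 ± 0.05 in naive T cells and 0.43 ± 0.06 in EAE T cells. The B cell markers had a median log2 change of 0.25 over 13 tested genes in EAE T cells, with 1, Ighm, called higher, and a median difference of 0.23 over 14. The CD8 markers had medians of 0.31 and 0.41 over 2 genes, neither of them called. The part of these cells in the differences was not tested. Stat4, the signal transducer of interleukin 12, had -0.06 ± 0.03 and 0.31 ± 0.05.

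In naive B cells the effect differed from that in naive T cells for 5095 genes. The log2 difference (naive B minus naive T) was -1.24 for Fam129a, -1.22 for Egr2, -1.15 for Ccnd2, -1.03 for Psat1 and -0.97 for Ldha. In the other direction it was 1.38 for S1pr1, 1.32 for Emb, 0.99 for Cd55, 0.95 for Sorl1 and 0.78 for Satb1. S1pr1, a receptor for exit from lymphoid organs, had a log2 change of -0.02 ± 0.03 in naive T cells and 1.31 ± 0.04 in naive B cells, and Psat1, an enzyme of serine synthesis, had 0.01 ± 0.04 and -1.07 ± 0.04. The B cells were stimulated through their antigen receptor and the T cells through CD3, so that cell type and stimulus cannot be told apart.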

How the results depend on the processing

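The averaged comparison called 24 genes. It called 0 with no replicate block, 87 with the 12 stimulated libraries alone, 80 with a replicate block within each IFNb arm, 92 with DESeq2 and 319 with no filter on low counts. RLE scaling and a minimum of 1 CPM gave 22 and 25. By lane, alternatives chosen after seeing the data, it called 2 with lane as the block and 0 in the 4 pairs from the same lane. Leaving out a replicate number or a library gave 1 to 20. The count was 1 without replicate 2, 5 without replicate 3 and 5 without CtrlIg replicate 3, 6 without anti-Btla replicate 1 or anti-Btla+IFNb replicate 2, 8 and 11 without CtrlIg+IFNb replicates 2 and 3, 9 without anti-Btla replicate 3, and 12 and 15 without anti-Btla+IFNb replicates 1 and 3. All 24 genes kept their direction wherever they were tested. These settings reuse libraries on which the 24 genes were chosen, so kept directions are no independent evidence.

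Without IFNb the count of 0 became 31 with the 12 libraries, 19 with the block within each arm, 36 with DESeq2, 254 with no filter, and 0 to 1 with a library or number left out. With IFNb the count of 2 became 0 with no replicate block, 9, 17, 13 and 144 in the same order, 0 with RLE scaling, 0 with either lane alternative, and 0 to 5 with a library or number left out. For the difference between arms the count of 0 became 3, 9, 11 and 117, and 0 to 3. The EAE T minus naive T count of 147 became 0 with no replicate block, 405 with DESeq2 and 8 to 14 with a naive T number left out. The naive B minus naive T count of 5095 ranged from 4254 to 5250.

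Among named genes that were not called, the log2 change turned sign when a library or number was left out for Btla (range -0.0243 to 0.0445), Ldha (-0.00371 to 0.0594), Psat1 (-0.0224 to 0.0569), Fam129a (-0.0173 to 0.134), Egr2 (-0.0446 to 0.00924) and S1pr1 (-0.0742 to 0.0193). It was -0.00432 for Psat1 in the 4 pairs from the same lane and 0.0153 for Spry1 with lane as the block. The cause was not tested for any of these. Depth differed between libraries (7297781 to 34019760 counts), the groups held 6 libraries each, and a gene that was not called is not shown to be level.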
